A study of Mus musculus with 4 samples.

Results

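The receptors and bridging proteins through which macrophages recognise and take up apoptotic cells were examined in bronchoalveolar lavage fluid (BALF) cells of bleomycin-given wild-type and S1pr2-/- mice. The set held 10 genes, Mertk, Axl, Tyro3, Gas6, Pros1, Timd4, Mfge8, Sirpa, Stab1 and Elmo1. They were found as the non-control probes whose transcript accession mapped to one of these symbols, which gave 11 of the 39429 probes on the array and 10 of the 20828 gene symbols that could be named. Tyro3 had 2 probes and each other gene had 1.

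Clearance of apoptotic cells, or efferocytosis, begins when a dying cell exposes phosphatidylserine on its surface. Some phagocyte receptors bind this lipid directly, whereas others bind it through a soluble bridging protein. The TAM receptors, Tyro3, Axl and Mertk, are tyrosine kinases of the second kind, and their bridging ligands are Gas6 and protein S (Pros1). In the lung, macrophages of the airspaces clear dying epithelial cells and leukocytes after injury.

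The 4 arrays were one-color arrays of a mouse whole-genome design, hybridised with Cy3-labelled cRNA from BALF cells, that is, the cells washed out of the airspaces, on day 22. There were 2 arrays of wild-type mice and 2 of S1pr2-/- mice, and the study design gives 2 independent experiments. Both genotypes were littermates of heterozygous breeding on a mixed genetic background that included C57BL/6J, and the S1pr2-/- mice carried a targeted disruption of S1pr2, a receptor for sphingosine-1-phosphate, in all tissues. Mice were 8 to 10 weeks old at the first injection, and every mouse behind these arrays had received intraperitoneal bleomycin at 0.035 U/g in 2 injections per week, so no array shows the level without bleomycin. The sources used here do not say whether an array holds the cells of one mouse or of more. The p-values therefore measure the spread between these arrays, which may be partly technical.

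The unit throughout is the log2 of the background-corrected intensity over the array's 75th percentile, so that 0 is a signal equal to that percentile and a difference of 1 is a 2-fold difference. Differences are S1pr2-/- minus wild-type. The 75th percentiles lay between 2489 and 2817 intensity units, no spot was saturated, and 67.6% to 72.1% of probes were well above background. The probe of the targeted gene went against the labels. S1pr2 was at -0.13 and -0.16 in wild-type BALF cells against 2.67 and 2.54 on the arrays labelled S1pr2-/-, a difference of 2.75 (SE 0.0724, 6.72-fold, adjusted p = 0.333 from limma). Whether this probe lies inside the disrupted part of the gene is not known here. The genotype of each array below is that of its label, and every direction rests on the label.

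The labels call the cells alveolar macrophages, and macrophage markers were present on every array. All 5 general macrophage markers that could be named were well above background on at least one genotype and overlapped between genotypes, with a summed signal of 415 to 424 times the 75th percentile on the wild-type arrays and 393 to 408 on the arrays labelled S1pr2-/-. Of the 10 alveolar macrophage markers, 9 were named, and their summed signal was 534 to 591 and 523 to 596. Csf1r, the receptor that keeps macrophages alive, read 6.60 and 6.49 in wild-type BALF cells against 6.53 and 6.38 on the others. The RNA came from whole BALF, however, and markers of other cells were also present. In such bulk RNA, fewer cells of a type and less RNA per cell cannot be told apart.

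None of the 11 probes passed an adjusted p of 0.05. Their adjusted p-values from limma lay between 0.509 and 0.97, and 0.0% of the 27159 tested probes passed. At an unadjusted p under 0.05, 1 of the 11 probes was higher on the arrays labelled S1pr2-/-, Mertk, and 0 were lower, whereas 3.99% of all tested probes were higher and 5.59% lower. This split of all probes, 1083 higher and 1518 lower, was 1700 and 1050 under quantile normalization and 1650 and 1436 with the percentile taken over detected probes. Both arrays labelled S1pr2-/- lay above both wild-type arrays for 3 of the 11 probes, those of Mertk, Axl and Pros1, and 20.0% of all tested probes did so. The reverse was seen for 1 of the 11, a Tyro3 probe, and for 21.7% of all tested probes. Mertk, Axl and Pros1 kept this order under each of 5 other scalings. Among these, the authors' values differ from the scaling here mainly by an offset per array. Some other probes changed place. Gas6 joined the higher ones and Tyro3 left the lower ones under normexp, Tyro3 left them under quantile normalization, Sirpa joined them with the percentile over detected probes, and Sirpa and the second Tyro3 probe joined them on the authors' values. With 11 probes, nothing particular to the set is read from these counts. The median difference over the 10 genes was 0.19, and it was -0.003 over all tested probes. With 2 arrays against 2, an exact two-sided permutation test of a single probe cannot go below p = 0.333.

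**Figure D1:**
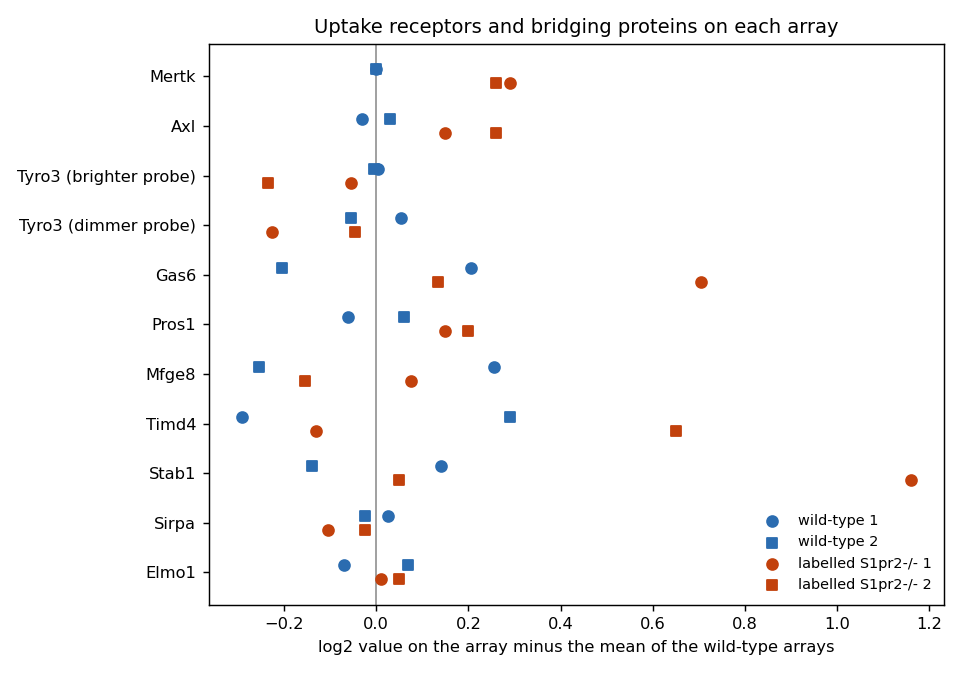
Log2 value on each array minus the mean of the wild-type arrays (horizontal axis) for each of the 11 probes, with 1 point per array, blue for wild-type and orange for the arrays labelled S1pr2-/- (circles, replicate 1 and squares, replicate 2). Mertk, Axl and Pros1 have both orange points to the right of both blue ones, whereas Stab1 has a single orange point far to the right, the array at 0.31 on the log2 scale of the text.

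Mertk, the TAM receptor with the best known role in uptake of apoptotic cells by macrophages, gave the smallest p of the set. It read 2.52 and 2.52 in wild-type BALF cells against 2.81 and 2.78 on the arrays labelled S1pr2-/-. The arrays of each genotype lay close together, and a gap of 0.26 separated the genotypes. The difference was 0.28 (SE 0.0551), a 1.21-fold higher signal with a 95% interval of 1.08 to 1.36 (unadjusted p = 0.0121, adjusted p = 0.509 from limma). This is a small difference between arrays with little spread, and 570 tested probes, 2.1%, had a smaller p. Leaving out 1 array at a time kept the difference between 0.26 and 0.29, but the unadjusted limma p rose to 0.0511 without wild-type array 1 and to 0.0503 without S1pr2-/- array 1.

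Axl, the TAM receptor that binds Gas6 and is found on airway macrophages in the resting lung, read 5.03 and 5.09 in wild-type BALF cells against 5.21 and 5.32 on the arrays labelled S1pr2-/-. The genotypes did not overlap and the gap between them was 0.12. The difference was 0.20 (SE 0.0725), a 1.15-fold higher signal, with a 95% interval of -0.02 to 0.42 (adjusted p = 0.534 from limma). The interval includes 0.

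Tyro3, the remaining TAM receptor, went the other way on both of its probes. The brighter probe read -2.63 and -2.64 in wild-type BALF cells against -2.69 and -2.87 on the arrays labelled S1pr2-/-. It was lower without overlap, though by 0.06 for the nearest arrays. Its difference was -0.15 (SE 0.089, 95% interval -0.42 to 0.12, adjusted p = 0.629 from limma), and it was -0.058 without S1pr2-/- array 2. The order of the genotypes was lost under quantile normalization and under normexp background correction. The dimmer probe read -6.01 and -6.12 in wild-type BALF cells against -6.29 and -6.11 on the others, so that the genotypes overlapped, with a difference of -0.14 (SE 0.0973, adjusted p = 0.672).

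The ligands of the TAM receptors differed in how closely their arrays lay. Pros1 encodes protein S, a blood anticoagulant cofactor that also bridges phosphatidylserine to Mertk and Tyro3. It read 2.21 and 2.33 in wild-type BALF cells against 2.42 and 2.47 on the arrays labelled S1pr2-/-. The genotypes did not overlap, with a gap of 0.09. The difference of 0.18 (SE 0.0745, 1.13-fold, 95% interval -0.05 to 0.40, adjusted p = 0.555 from limma) had an interval that includes 0.

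Gas6, which binds every TAM receptor, read 0.14 and -0.27 in wild-type BALF cells against 0.64 and 0.07 on the arrays labelled S1pr2-/-. Replicate 1 was above replicate 2 in each genotype, and the genotypes overlapped. The difference of 0.42 (SE 0.282, 95% interval -0.43 to 1.28, adjusted p = 0.654 from limma) lay between 0.13 and 0.71 when 1 array was left out. The value of Gas6 is therefore known less closely than those of its receptors.

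Mfge8, or lactadherin, bridges phosphatidylserine to alpha-v integrins. It read 6.16 and 5.65 in wild-type BALF cells against 5.98 and 5.75 on the arrays labelled S1pr2-/-. The wild-type arrays enclosed both others, and the difference was -0.04 (SE 0.224, 95% interval -0.72 to 0.64, adjusted p = 0.97 from limma). Its sign turned under quantile normalization and normexp. The integrin chains that bind Mfge8, named here as its partners after their values were seen, did not share a direction. Itgb5 read 4.65 and 4.45 against 4.97 and 4.80 on the arrays labelled S1pr2-/-, higher by 0.33 (SE 0.117, adjusted p = 0.530). Itgb3 read -0.64 and 0.23 against -0.97 and -1.94, a difference of -1.25 (SE 0.512, adjusted p = 0.548), and Itgav differed by 0.15 (SE 0.0724, adjusted p = 0.586).

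The receptors that bind phosphatidylserine directly had wide spreads. Timd4 tethers apoptotic cells and marks long-lived resident macrophages of several tissues. It read -5.21 and -4.63 in wild-type BALF cells against -5.05 and -4.27 on the arrays labelled S1pr2-/-, with replicate 2 the higher in each genotype and the genotypes overlapping. The difference was 0.26 (SE 0.381, 95% interval -0.89 to 1.42, adjusted p = 0.820 from limma). It turned to -0.026 without wild-type array 1 and to -0.13 without S1pr2-/- array 2.

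Stab1, or stabilin-1, is a scavenger receptor of macrophages and sinusoidal endothelium that also binds phosphatidylserine. It had the largest difference of the set, and the only one past 1.5-fold, which 4.76% of all tested probes passed. Its values were -0.71 and -0.99 in wild-type BALF cells against 0.31 and -0.80 on the arrays labelled S1pr2-/-. A single array was high and the other lay among the wild-type arrays. The difference was 0.60 (SE 0.45, 1.52-fold, 95% interval -0.76 to 1.97, adjusted p = 0.684 from limma), and it was 0.046 without S1pr2-/- array 1 and 1.16 without S1pr2-/- array 2. The summed signal of fibroblast and endothelial markers was also highest on S1pr2-/- array 1, at 0.682 times the 75th percentile. It was 0.373 on the other array labelled S1pr2-/- and 0.275 to 0.283 in wild-type. Of these markers, Dcn, Col1a1, Col1a2 and Col3a1 were higher without overlap, whereas Pdgfra differed by -0.12. The endothelial marker Cdh5 differed by -0.01, and Cldn5, also endothelial, read -6.64 on every array, the lowest value the scale allows. The part of fibroblasts and endothelial cells in the Stab1 value was not tested.

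Sirpa restrains engulfment and Elmo1 promotes it, and both overlapped between the genotypes. Sirpa is the macrophage receptor for Cd47, and it restrains uptake through the phosphatases Ptpn6 and Ptpn11. It read 5.10 and 5.05 in wild-type BALF cells against 4.97 and 5.05 on the arrays labelled S1pr2-/-, a difference of -0.07 (SE 0.0655, 95% interval -0.26 to 0.13, adjusted p = 0.739 from limma). Its ligand Cd47, chosen as a partner after its value was seen, differed by 0.05 (SE 0.104, adjusted p = 0.884). Elmo1 is the adaptor that, with a Dock protein, activates Rac for engulfment. It read -4.11 and -3.97 in wild-type BALF cells against -4.03 and -3.99 on the others, which overlapped, and the difference was 0.03 (SE 0.0796, 95% interval -0.21 to 0.27, adjusted p = 0.911).

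The intervals set how large a difference the arrays could have missed. For 7 of the 11 probes, those of Mertk, Axl, Tyro3 (both), Pros1, Sirpa and Elmo1, the 95% interval lay within 1.5-fold in both directions, and 65.5% of all tested probes had such an interval. For Gas6, Mfge8, Timd4 and Stab1 it did not, and it reached past 1.5-fold in both directions for Mfge8, Timd4 and Stab1. For Gas6 the lower bound of -0.43 lay within 1.5-fold and the upper bound of 1.28 did not. Among the 7, the dimmer Tyro3 probe lay close to the floor of the scale, at 35.8 to 39.6 intensity units. Elmo1 was also dim, at 148 to 172 units. How far a change would show at such dim signals was not tested.

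**Figure D2:**
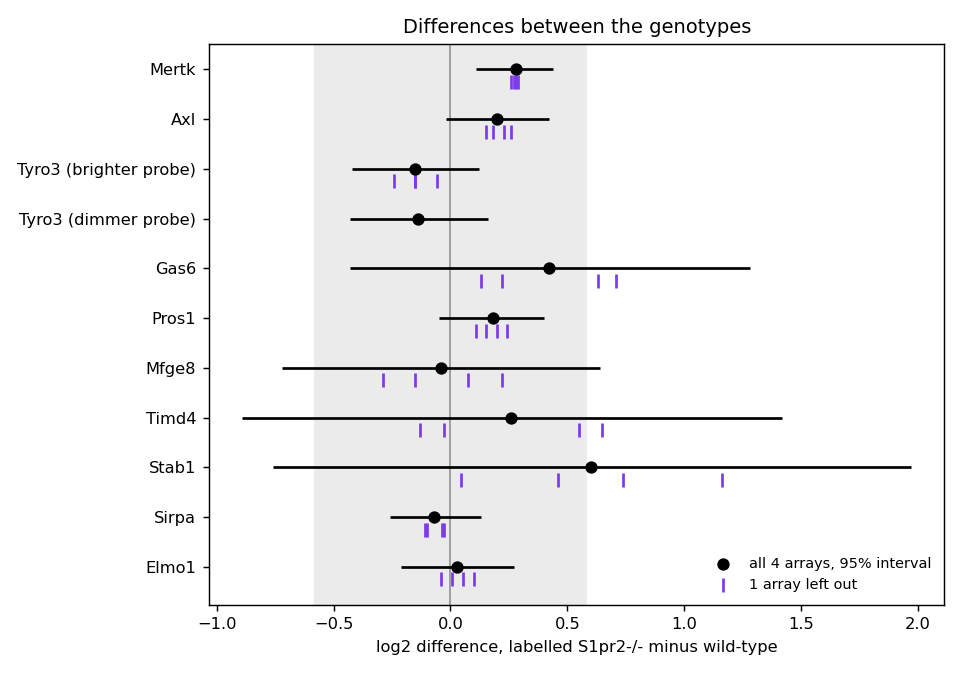
Log2 difference, labelled S1pr2-/- minus wild-type, for the 11 probes (black points) with 95% intervals from limma (bars), the differences with 1 array left out (purple ticks, not drawn for the dimmer Tyro3 probe) and the range within 1.5-fold shaded in grey. The Mertk interval of 0.11 to 0.44 is the only one that lies clear of 0, before adjustment over all probes, and the ticks of Stab1 run from 0.046 to 1.16.

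The windows before the gene starts were read for the 3 genes that lay higher without overlap, as the members that shared this order. RefSeq windows of the build GRCm38.p6 were found for 9 of the 10 genes, with 2 windows for Elmo1 and none listed for Sirpa. Below are the 250 bases before a start that RefSeq gives for Mertk (chr2:128698665-128698914, plus strand), Axl (chr7:25788734-25788983, minus strand) and Pros1 (chr16:62854057-62854306, plus strand), 5′ to 3′ along the gene. The Axl window belongs to a start inside the gene, and 191 of its 250 bases lie within the gene's RefSeq span, whereas 0 bases of the Mertk and Pros1 windows do. Capitals mark the GC box GGGCGG on either strand and a STAT6-type motif, TTC and GAA with 4 bases of any kind between them, which reads the same on both strands.
Mertk: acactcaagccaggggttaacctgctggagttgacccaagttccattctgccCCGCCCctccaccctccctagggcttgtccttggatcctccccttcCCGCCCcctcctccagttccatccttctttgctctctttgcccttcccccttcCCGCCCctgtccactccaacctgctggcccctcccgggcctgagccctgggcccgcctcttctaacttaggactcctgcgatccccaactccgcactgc
Axl: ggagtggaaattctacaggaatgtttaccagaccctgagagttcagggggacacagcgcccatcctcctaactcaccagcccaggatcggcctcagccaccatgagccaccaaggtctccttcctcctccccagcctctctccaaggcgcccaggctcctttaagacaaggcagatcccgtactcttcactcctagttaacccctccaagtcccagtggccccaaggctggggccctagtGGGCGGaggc
Pros1: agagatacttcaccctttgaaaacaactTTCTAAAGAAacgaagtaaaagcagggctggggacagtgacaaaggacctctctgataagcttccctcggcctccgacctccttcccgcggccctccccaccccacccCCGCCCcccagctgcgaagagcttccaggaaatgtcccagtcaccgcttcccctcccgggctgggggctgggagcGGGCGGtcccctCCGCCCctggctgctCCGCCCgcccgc

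Both motifs were chosen after the values of the genes were seen. The GC box was in 7 of the 10 windows, and 32.7% of all 32851 windows of the same length held it. Mertk had 3 and Pros1 had 4, whereas Axl had 1 near the end of its window. The STAT6-type motif was in 1 of the 10 windows, that of Pros1, and in 5.85% of all windows. A match describes these letters in these windows and was not tested as a binding site.

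Beyond the 10 genes, 86 other genes of the uptake pathway were listed by role. Of these, 85 had a named probe and 80 were tested. None passed the adjusted threshold, 4 were higher and 6 lower at an unadjusted p under 0.05, and 24 were higher and 19 lower without overlap. The shares over all tested probes were 3.99% higher and 5.59% lower at that p, and 20.0% higher and 21.7% lower without overlap, and the counts for each list below are to be read beside these. Their median difference was 0.04.

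Among other uptake receptors, 16 of 19 were tested, with 2 higher and 1 lower at an unadjusted p under 0.05 and a median of 0.12. The largest differences were those of Itgb3 (above), of Stab2, the sister receptor of Stab1, and of Ager, a receptor that also marks type I alveolar epithelium. Stab2 read -4.76 and -5.11 in wild-type BALF cells against -4.18 and -4.36 on the others, a difference of 0.66 (SE 0.161, adjusted p = 0.509 from limma). Ager differed by -0.35 (SE 0.0808, adjusted p = 0.509).

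Of the bridging and eat-me proteins, 8 of 9 were tested and 0 were past an unadjusted p of 0.05, with a median of 0.11. The chains of C1q, the complement protein that coats apoptotic cells, were each higher without overlap. C1qb differed by 0.61 (SE 0.302, adjusted p = 0.589 from limma), C1qa by 0.58 (SE 0.303, adjusted p = 0.597) and C1qc, added to complete the protein after its value was seen, by 0.54 (SE 0.284, adjusted p = 0.602). Thbs1, or thrombospondin-1, overlapped at -0.57 (SE 0.584). The chains of one complex are not independent of each other, and they also stand on the list of monocyte-derived macrophage markers.

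The list of inhibitory ligands and phosphatases had a median of -0.23 over 6 genes, which was -0.08 without wild-type array 2. It also holds Siglecg, a receptor, and Pecam1, an adhesion molecule. At an unadjusted limma p under 0.05, these 2 were lower and 0 genes were higher. Without overlap, 3 of the 6 were lower, and 0 passed the adjusted threshold. Cd47 and Ptpn6, named after their values were seen, differed by 0.05 and 0.09. Siglecg, a sialic acid receptor of B cells and other leukocytes that binds Cd24, read -2.74 and -2.01 in wild-type BALF cells against -3.61 and -3.73 on the arrays labelled S1pr2-/-, a difference of -1.30 (SE 0.294, adjusted p = 0.509 from limma). Pecam1, an adhesion molecule of endothelium and leukocytes, differed by -0.44 (SE 0.1, adjusted p = 0.509), and Cd24a overlapped at -0.33 (SE 0.251). B cell markers summed to 1.60 and 0.502 times the 75th percentile on wild-type arrays 1 and 2. On S1pr2-/- arrays 1 and 2 they summed to 0.636 and 0.456, with 0 of 5 markers free of overlap. The part of B cells in the Siglecg value was not tested.

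The engulfment machinery downstream of the receptors stayed near 0. Over 14 tested genes the median was -0.02, with 0 past an unadjusted p of 0.05 and a range of -0.33 (Bcar1) to 0.21 (Vav3). Crk, an adaptor of this pathway, differed by -0.30 (SE 0.122, adjusted p = 0.548 from limma). Rac1, the GTPase at its end, chosen after its values were seen, read 4.83 and 4.84 against 4.79 and 4.83.

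Find-me signals and their receptors had a median of -0.06 over 8 genes. Sphk1, a kinase that makes sphingosine-1-phosphate, read 0.08 and -0.31 in wild-type BALF cells against -0.75 and -1.50 on the others, a difference of -1.01 (SE 0.336, adjusted p = 0.521 from limma). S1pr1 differed by -0.77 (SE 0.374, adjusted p = 0.586). Cx3cr1, the fractalkine receptor, was higher by 0.67 (SE 0.267, adjusted p = 0.544), and no array of one genotype overlapped the other for any of these 3 genes.

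After engulfment, phagosome maturation genes had a median of 0.10 over 10 genes. Dnase2a, the nuclease that digests engulfed DNA, differed by -0.21 (SE 0.118, adjusted p = 0.622 from limma). Rab7, of late phagosomes, read 1.20 and 1.23 against 1.40 and 1.40, higher by 0.19 (SE 0.0547, adjusted p = 0.518), and Pik3c3 by 0.17 (SE 0.0717, adjusted p = 0.559). In the sterol and nuclear receptor response to engulfed lipid, the median was 0.10 over 10 genes, and 4 were higher and 1 lower without overlap, where 20.0% and 21.7% of all tested probes were. The median was 0.16 without S1pr2-/- array 1 and 0.02 without S1pr2-/- array 2. Ucp2 was higher by 0.34 (SE 0.121, adjusted p = 0.534), Pparg by 0.21 (SE 0.0813, adjusted p = 0.542) and Nr1h3, or LXR alpha, by 0.19 (SE 0.0708, adjusted p = 0.535).

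The list of TAM receptor sheddases and feedback genes had a median of -0.11 over 8 genes, and 4 were lower and 1 higher without overlap, where 21.7% and 20.0% of all tested probes were. The median was -0.22 without S1pr2-/- array 1 and -0.02 without S1pr2-/- array 2. Socs1, a feedback inhibitor of cytokine signaling that TAM receptors are known to induce, read 0.62 and 1.59 in wild-type BALF cells against -0.51 and -0.75 on the arrays labelled S1pr2-/-, a difference of -1.74 (SE 0.392, adjusted p = 0.509 from limma). Socs3, another such inhibitor, differed by -0.56 (SE 0.199, adjusted p = 0.534). The part of TAM receptors in the values of Socs1 and Socs3 was not tested. Adam17, the protease that sheds Mertk, was chosen after its value was seen and differed by 0.09 (SE 0.085, adjusted p = 0.736).

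**Figure D3:**
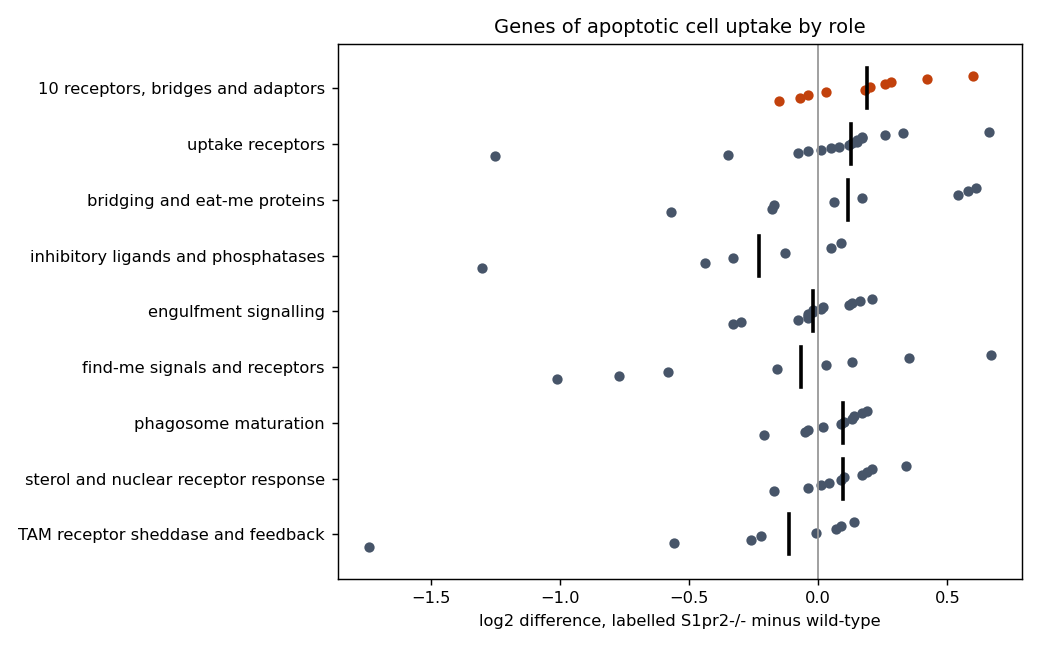
Log2 difference, labelled S1pr2-/- minus wild-type (horizontal axis), for each tested gene (points) of the 10 receptors, bridges and adaptors and of 8 other uptake pathway lists, with the median of each list (line). The medians lie between -0.23 for the list of inhibitory ligands and phosphatases, which also holds Siglecg and Pecam1, and 0.19 for the 10 genes.

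Marker sums of some other cells stood apart between the genotypes and those of others overlapped, and 0 markers passed the adjusted threshold. The named genes of each list are summed here as signal over the 75th percentile, and counts without overlap stand beside 20.0% higher and 21.7% lower over all tested probes. Eosinophil markers summed to 6.05 to 14.6 on the wild-type arrays and 2.36 to 3.69 on the arrays labelled S1pr2-/-, and 6 of the 6 tested were lower without overlap. One of these, Epx, was at the floor on S1pr2-/- array 1 and passed the filter only through the wild-type arrays, so the count is a description. The median difference of the 6 was -4.5, which the sums do not show. Ear6, named after its value was seen, was the brightest on every array, at 1.81 and 2.73 against 1.16 and 1.80. It differed least, by -0.79. Neutrophil markers summed to 85.9 to 96.4 and 63.2 to 69.5, with 5 of 8 lower without overlap, and T cell markers to 19.0 to 20.6 and 12.2 to 16.6, with 5 of 8 lower. NK cell markers summed to 2.9 to 7.41 and 1.86 to 3.71, with 1 of 4 lower without overlap, and dendritic cell markers to 10.9 to 13.6 and 9.42 to 9.65, with 2 of 6 lower. These are cells that a BALF sample can hold, and their sums were lower or overlapped on the arrays labelled S1pr2-/-.

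Other sums lay higher or showed no one direction. Monocyte-derived macrophage markers summed to 105 to 184 on the wild-type arrays and 144 to 206 on the arrays labelled S1pr2-/-, with 5 of 9 higher without overlap and a median of 0.54. That median was 0.17 without wild-type array 2, 0.19 without S1pr2-/- array 1 and 0.83 without S1pr2-/- array 2. Of the fibroblast and endothelial markers, whose sums are given with Stab1, 4 of 6 were higher without overlap. Epithelial markers summed to 30.6 to 33.6 and 24.6 to 40.3, with 5 of 8 lower without overlap, and 3 of 4 erythroid markers were higher. Mast cell and basophil markers, of which 2 of 6 were tested and 3 were not well above background on any array, summed to 0.48 to 0.519 and 0.467 to 0.495. The part of these cells in the differences of the uptake genes was not tested.

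Some of these values had the same highest and lowest arrays as uptake genes. Gas6 and Stab1 were highest on S1pr2-/- array 1 and lowest on wild-type array 2. The same was seen for C1qa, at 3.42 and 2.90 in wild-type BALF cells against 4.03 and 3.46 on the others, and for Cx3cr1, at 2.33 and 1.77 and at 2.90 and 2.53. The middle arrays differed in order. Wild-type array 1 was above S1pr2-/- array 2 for Gas6 and Stab1, and below it for C1qa and Cx3cr1. Mfge8 followed another order, wild-type array 1 above S1pr2-/- array 1, S1pr2-/- array 2 and wild-type array 2, which was also the order of Apoe, at 6.16 and 3.74 in wild-type BALF cells against 6.04 and 5.14 on the others. Of the marker genes, these were chosen after their values were seen, and their part in the values of Gas6, Stab1 and Mfge8 was not tested. The share of all tested probes with these orders is not given, so nothing particular is read from them.

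**Figure D4:**
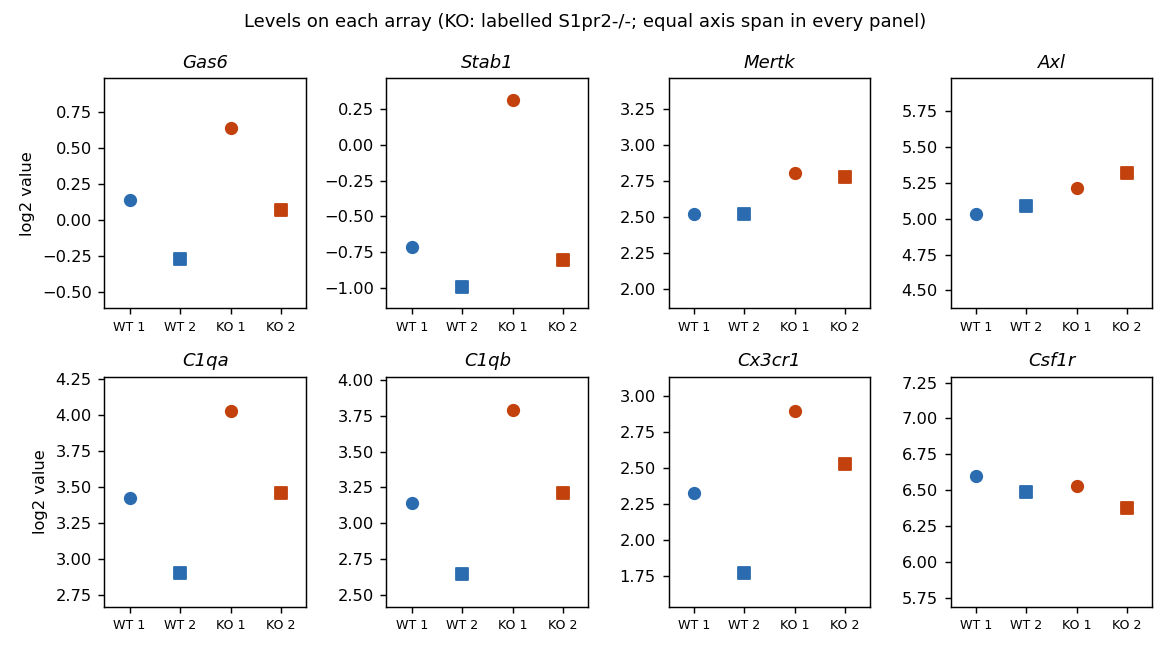
Log2 value on each array (vertical axis, of equal span in every panel) for Gas6, Stab1, Mertk, Axl, C1qa, C1qb, Cx3cr1 and Csf1r, with 1 point per array (WT, wild-type and KO, labelled S1pr2-/-). Gas6, Stab1, C1qa, C1qb and Cx3cr1 are each highest on S1pr2-/- array 1 and lowest on wild-type array 2, whereas the wild-type points of Mertk lie at the same height.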

How the data were processed

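Gene expression in BALF cells was measured on 4 one-color Agilent arrays. For each array the authors deposited the intensity of every spot, already corrected for background by Feature Extraction (version 10.7.3.1 in the submitters' notes, while the scanner files name another). They also deposited a table of log2 values, which was used as an alternative. It was compared with the log2 scaled signal, without a floor and less the wild-type midpoint. After an offset per array was removed, the values matched within 0.01 for 100.0% of 39359 probes. As an alternative it thus differs from the scaling here by little but this offset and the floor. The medians of the authors' table per array were 0.023, -0.023, -0.058 and -0.034.

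Each array was scaled by the 75th percentile of its non-control spots, scaled values were floored at 0.01, and log2 was taken. The methods set the minimum of 0.01 before scaling. Between 115 and 273 spots with outlier flags per array were left out, and spots of a probe were averaged. A probe was tested where no array lacked a value and both arrays of one genotype, or all 4, were well above background. This left 27159 probes for lmFit and eBayes of limma 3.58.1 (R 4.3.3), with Benjamini-Hochberg adjustment over all of them. All 11 probes of the 10 genes passed this filter and were well above background on every array. Precision is limited by the number of arrays. The fit was tested on simulated data. All arrays lay on 1 slide with 1 scan.

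The files hold no gene names. Accessions were named through a RefSeq table of GRCm38.p6 (69.5% of probes, 98.3% of NM accessions). Gene coordinates are left out, since the design of the array is on another build. For a gene with several probes, the one with the highest mean was used. The text names all 10 genes, S1pr2, and of each other list up to 3 genes with the largest absolute difference, and other genes are said to be chosen after their values were seen. One gene that this naming covers is not reported here. The 10 genes and all lists were chosen with earlier results of these data known. Alternatives were quantile and cyclic loess normalization, a percentile over detected probes and normexp on the median spot signal (the mean signal was not used). Others were the authors' log2 table, no floor, 2 other filters, outlier spots kept, a variance trend and the replicate number as a block. The remaining ones were a t-test with pooled variance, the other Tyro3 probe and each array left out. The methods do not name the test used for the arrays.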

Additional observations from a re-analysis of the deposited data

How the results depend on the processing

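The count of the 11 probes past an adjusted p of 0.05 was 0 under every alternative run, and that over all probes was 0 except under normexp background correction, where it was 2. At an unadjusted limma p under 0.05, the 1 higher probe (Mertk) became 2 under cyclic loess (Axl, unadjusted p = 0.0468), the percentile over detected probes (Axl, unadjusted p = 0.034), a trended variance (Axl, unadjusted p = 0.0328) and the replicate block (Gas6, unadjusted p = 0.025). It lay between 0 and 2 when 1 array was left out: 0 without wild-type array 1 or S1pr2-/- array 1, and 2 without S1pr2-/- array 2 (Mertk, and Stab1, unadjusted p = 0.0213). The lone array of a genotype was then assumed to vary like the others. None of the 11 was lower at that threshold under any alternative.

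Mertk stayed at 0.27 to 0.29 under the alternatives that kept all arrays, with a lowest adjusted p of 0.303. Its sign, and those of Axl, the brighter Tyro3 probe, Gas6, Pros1, Stab1 and Sirpa, held under every alternative run for them. The difference of the dimmer Tyro3 probe is given at the settings of the report only, although the counts under the alternatives include this probe. Mfge8 turned to 0.005 under quantile normalization, 0.018 under normexp, 0.22 without wild-type array 1 and 0.073 without S1pr2-/- array 2. Timd4 turned to -0.026 and -0.13 without those arrays, and Elmo1 turned to -0.042 without wild-type array 1. With 1 array left out, Mfge8 lay between -0.29 and 0.22, Timd4 between -0.13 and 0.65 and Elmo1 between -0.042 and 0.10. The cause was not tested. Of the other uptake pathway lists, the find-me median turned to 0.03 without wild-type array 1, and the median of inhibitory ligands and phosphatases was -0.08 without wild-type array 2. The fibroblast and endothelial median was 0.17 without S1pr2-/- array 1.

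The mean of its genotype was taken from each array, and the remaining deviations of arrays with the same replicate number correlated at 0.187 across probes. With 2 arrays per genotype, the 2 pairs give the same value by construction. Nothing in the labels ties the numbers to a shared experiment, so the arrays were not treated as pairs. With the replicate block, 0 probes were called, as without it.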
